A study of Mus musculus with 2 samples.

Results

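The miR-181 family consists of 6 mouse miRNA genes, Mir181a-1, Mir181a-2, Mir181b-1, Mir181b-2, Mir181c and Mir181d, out of 1174 annotated miRNA hairpins searched. Its reads were those deposited tags of 18 to 30 nt that equal a stretch of 1 of these 6 hairpins, directly or after removal of 1 to 3 nt at the 3′ end. A tag is a distinct sequence with its read count. The data are 1 small RNA library from CD11c+Ia_low cells and 1 from CD11c+Ia_high cells of C57BL/6J mouse spleen, both labelled dendritic cells and obtained by bead enrichment and a cell sorter. No allele, agent, age, time or number of mice is given for either. Ia is the mouse MHC class II molecule, so the gate itself separates cells by MHC class II. With 1 library per population there was no replicate check, and no p-value is given.

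A miRNA is cut from a hairpin as a short duplex, and usually 1 arm is kept by an Argonaute protein and guides it to mRNAs that pair with the seed, bases 2 to 8 of the miRNA. The miR-181 family is known from the thymus, where miR-181a sets how strongly developing T cells respond to antigen by acting on phosphatases of the receptor pathway. In myeloid cells its members have been reported to act on mRNAs of cytokines, activation factors and survival proteins.

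The 5p arms of the family are shown first because they share 1 seed, ACAUUCA, and differ only in the body, which is what allows the members to be told apart. Capitals mark the seed. The mature sequences are those of RefSeq on GRCm38.p6. Among the mouse miRNAs of that table no other mature sequence had this seed.
miR-181a-5p: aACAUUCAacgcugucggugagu
miR-181b-5p: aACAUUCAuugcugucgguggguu
miR-181c-5p: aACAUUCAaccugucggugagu
miR-181d-5p: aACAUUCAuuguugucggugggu

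The 3p arms are shown because they differ between genes whose 5p arms are identical, so that they mark the locus. The seeds of miR-181a-1-3p and miR-181c-3p are the same, and that of miR-181a-2-3p is not.
miR-181a-1-3p: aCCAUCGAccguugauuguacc
miR-181a-2-3p: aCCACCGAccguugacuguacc
miR-181b-1-3p: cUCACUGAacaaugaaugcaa
miR-181c-3p: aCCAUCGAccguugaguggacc

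The 6 genes form 3 clusters of an a and b or c and d gene. On GRCm38, Mir181a-1 lies at chr1:137966455-137966541 and Mir181b-1 at chr1:137966639-137966718, both on the plus strand with 97 nt between them, in an exon of the lincRNA A430106G13Rik and an intron of the non-coding Gm4258. Mir181a-2 lies at chr2:38852735-38852810 and Mir181b-2 at chr2:38853830-38853918, both on the plus strand with 1019 nt between them, in an intron of Nr6a1, a nuclear receptor gene on the opposite strand. Mir181c lies at chr8:84178873-84178961 and Mir181d at chr8:84178716-84178787, both on the minus strand with 85 nt between them, in an intron of Nanos3, a germ cell gene on the same strand.

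The Ia_low library held 13739811 reads and the Ia_high library 16388303 reads, of which 26.6% and 45.4% were miRNA hairpin reads. All levels below are reads scaled to 1000000 miRNA hairpin reads (CPM), from 3649941 Ia_low and 7437901 Ia_high reads. Counted in reads, 0 reads allows up to 0.822 CPM in Ia_low and 0.403 CPM in Ia_high at this depth. Tags read more than once had most often been read 9 times in Ia_low and 4 times in Ia_high. A single such tag comes to 2.47 CPM in Ia_low and 0.538 CPM in Ia_high, above the limits given for 0 reads, which were not widened. Counts were divided by 9 in Ia_low and 4 in Ia_high before each exact (Clopper-Pearson) 95% interval of a ratio was computed. These intervals cover counting error only, since the reads were amplified by PCR and no molecular identifiers are named.

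The labels were set against marker genes through distinct mRNA fragments in the same libraries, each list as a sum scaled to 1000000 fragments. The 4 markers of conventional type 1 dendritic cells summed to 744 in Ia_low and 3560 in Ia_high, all 4 at least 2-fold lower in Ia_low, with Xcr1 and Cadm1 at 0 fragments there. The 5 markers of Ly6C-low monocytes summed to 11136 in Ia_low and 4517 in Ia_high, with 4 of the 5 at least 2-fold higher in Ia_low. The part of this difference in cell markers in the miR-181 values below was not tested. In such bulk libraries, fewer cells of a type and less RNA per cell cannot be told apart. The family is abundant in lymphocytes, and of 7 T cell markers Cd3e, Cd3d and Lck were at 0 fragments in both libraries. The whole T cell list summed to 22.6 in Ia_low and 698 in Ia_high. Of its genes Cd4 and Cd8a, which dendritic cell subsets also carry, had 1 fragment each in Ia_low against 114 and 79 in Ia_high, and Tcf7 had 0 in Ia_low and 32 in Ia_high. The 5 B cell markers summed to 45.1 in Ia_low and 86.5 in Ia_high, from 6 and 28 fragments.

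The family as a whole made up a smaller share of the miRNA of Ia_low cells than of Ia_high cells. It had 417738 reads in Ia_low, 11.4% of that library's miRNA reads, and 1385822 reads in Ia_high, 18.6% of that library's. The family total was 114451 CPM in Ia_low and 186319 CPM in Ia_high, a ratio of 0.614 (0.608 to 0.620), or 1.63-fold lower in Ia_low. With distinct tags counted instead of reads, hardly any difference was left: the log2 ratio was 0.02, against -0.70 for reads. That count gives each sequence the same weight, however many reads it has, and rests on 290 family tags in Ia_low and 569 in Ia_high. In both libraries nearly all of the family was 1 molecule: miR-181a-5p gave 92.4% of the family's reads in Ia_low and 92.7% in Ia_high.

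miR-181a-5p, the arm that the thymus work concerns, had 385806 reads or 105702 CPM in Ia_low and 1284242 reads or 172662 CPM in Ia_high. It was the fourth most abundant miRNA arm of the Ia_low library and the most abundant of the Ia_high library, where the next arm, that of Mirlet7f-1 and Mirlet7f-2, had 163786 CPM. Its ratio was 0.612 (0.606 to 0.618), 1.63-fold lower in Ia_low, which is short of the 2-fold that a call requires. Of its reads, those that Mir181a-1 and Mir181a-2 could both have produced numbered 385797 of 385806 in Ia_low and all 1284242 in Ia_high.

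miR-181b-5p, the second member in abundance, had 16926 reads or 4637 CPM in Ia_low and 49105 reads or 6602 CPM in Ia_high. Its ratio was 0.702 (0.669 to 0.737). miR-181c-5p had 8257 reads or 2262 CPM in Ia_low and 29457 reads or 3960 CPM in Ia_high, a ratio of 0.571 (0.533 to 0.612). Both lay on the same side as miR-181a-5p and neither reached 2-fold. With distinct tags the log2 ratio of miR-181b-5p was 0.07 and that of miR-181c-5p -0.13.

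miR-181d-5p had 3372 reads or 924 CPM in Ia_low and 6488 reads or 872 CPM in Ia_high. Its ratio was 1.06 (0.944 to 1.19), so that its interval held 1, and no direction is given for it. On the log2 scale its ratio was 0.08 as counted, -0.69 scaled to all reads, 0.39 centred on the median arm, -0.05 weighted by length and -0.19 from its most abundant tag. Of the 8 measured arms it was the only arm with a ratio above 1 as counted.

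**Figure D1:**
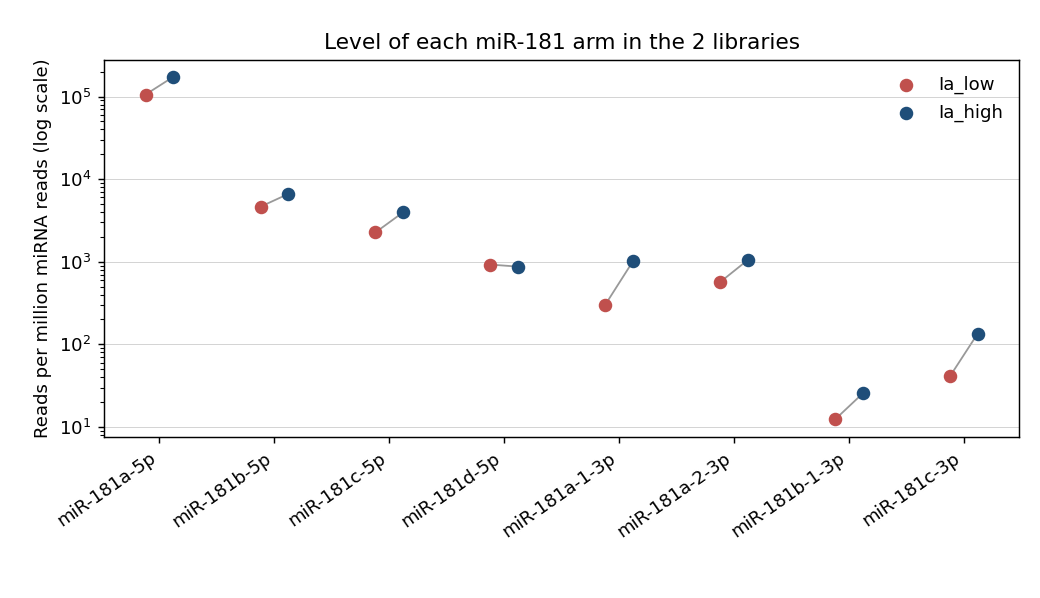
Level of each miR-181 arm, in CPM on a log axis, with Ia_low in red on the left and Ia_high in blue on the right of each pair. The points fall over a range from 12.3 CPM for miR-181b-1-3p in Ia_low to 172662 CPM for miR-181a-5p in Ia_high, and only miR-181d-5p is close to level between the libraries. There is 1 library per point and no error bar.

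The 3p arms, normally the arm that is discarded, held both of the family's calls. miR-181a-1-3p had 1100 reads or 301 CPM in Ia_low and 7506 reads or 1009 CPM in Ia_high, 3.35-fold lower in Ia_low (2.79 to 4.05). miR-181c-3p had 150 reads or 41.1 CPM in Ia_low and 999 reads or 134 CPM in Ia_high, 3.27-fold lower in Ia_low (1.99 to 5.73). These 2 arms were called lower by the rule used for every arm, which asks for 2-fold or more, a mean of at least 10 CPM and an interval without 1.

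miR-181a-2-3p had 2070 reads or 567 CPM in Ia_low and 7805 reads or 1049 CPM in Ia_high, a ratio of 0.541 (0.469 to 0.620), and was not called. miR-181b-1-3p had 45 reads or 12.3 CPM in Ia_low and 189 reads or 25.4 CPM in Ia_high, a ratio of 0.485 (0.151 to 1.21), and was not called. No read of miR-181b-2-3p or miR-181d-3p was seen in either library. Of the family's 10 annotated products, 8 therefore passed the mean of 10 CPM.

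Of these 8 arms, 2 were called lower and 0 higher in Ia_low. Over all 254 miRNA arms that passed the same mean, 28.3% were called lower and 9.06% higher, 72 and 23 arms, so the family's count of lower arms is close to the share among all arms. The split of the calls over all arms moved with the scaling, and so did the number of arms that passed the mean. It was 50 lower and 32 higher of 260 arms when ratios were centred on the median arm. It was 110 lower and 4 higher of 198 arms when reads were scaled to the whole library. With reads of 21 to 23 nt it was 51 lower and 27 higher of 252 arms. The median log2 ratio was -0.85 over the 8 family arms and -0.31 over the 249 arms with reads in both libraries, whose quartiles were -1.16 and 0.35. Of the 8 family arms 7 had a negative log2 ratio, as did 63.9% of all arms. Relative to that median of -0.31, the family total had a log2 ratio of -0.39.

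**Figure D2:**
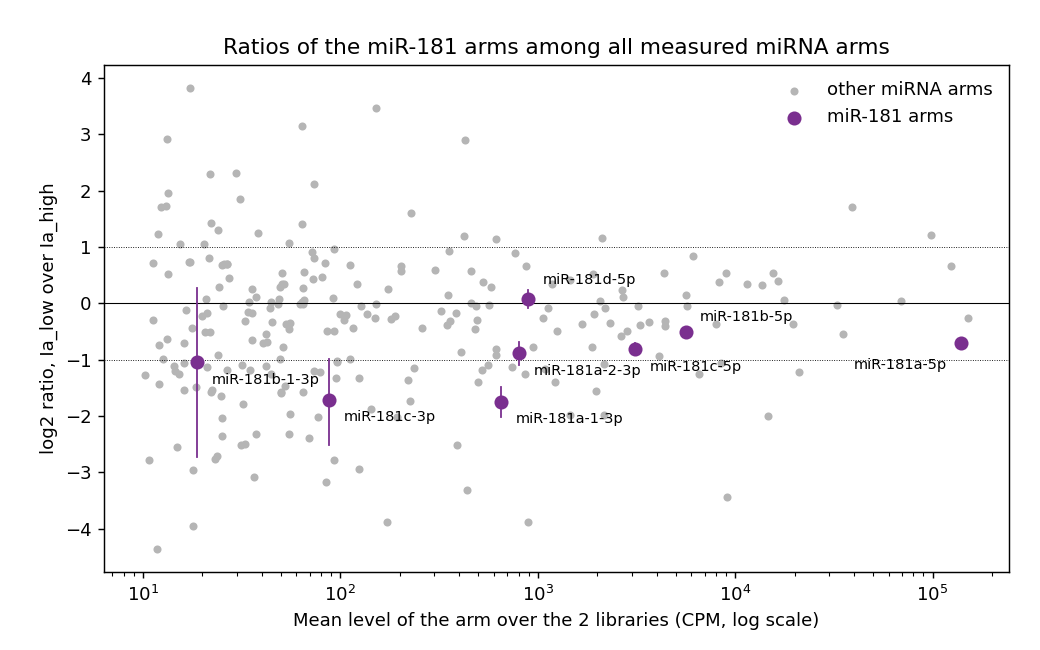
log2 ratio of Ia_low over Ia_high against mean level in CPM (log axis) for miRNA arms at a mean of at least 10 CPM with reads in both libraries. Purple points are the 8 miR-181 arms with their widened 95% counting intervals, grey points are other arms and dotted lines mark 2-fold. miR-181a-1-3p and miR-181c-3p lie below the lower dotted line with their intervals on the negative side, among many grey points.

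The arms most like miR-181a-5p in their ratio were sought among 54 arms outside the family at a mean of at least 1000 CPM, by the distance between log2 ratios over the 2 libraries. They were Mir30e-3p at 1401 CPM in Ia_low and 2382 CPM in Ia_high, Mir142-3p at 2125 and 3154 CPM, and Mir191-5p at 28688 and 41714 CPM. Nearest to miR-181b-5p were Mir93-5p at 2351 CPM in Ia_low and 3318 CPM in Ia_high, Mir186-5p at 1038 and 1454 CPM, and again Mir191-5p. With 2 libraries, this likeness is a single ratio.

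The members were not in the same proportion in the 2 libraries, by more than counting error for Mir181a-1, miR-181d-5p and miR-181b-5p. Of the 3p reads of the a genes, Mir181a-1 gave 34.7% (29.7% to 39.9%) in Ia_low and 49.0% (47.4% to 50.6%) in Ia_high. The rest came from Mir181a-2, so the chromosome 2 gene gave most of these reads in Ia_low, while the genes gave nearly equal numbers in Ia_high. The shares were 37.3% in Ia_low and 52.7% in Ia_high with templated reads alone, and 35.2% and 48.5% with reads of 21 to 23 nt. These alternatives were chosen after the shares had been seen.

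Of the reads of miR-181b-5p and miR-181d-5p together, miR-181d-5p gave 16.6% (15.1% to 18.2%) in Ia_low and 11.7% (11.1% to 12.2%) in Ia_high. miR-181c-5p, from the same cluster as miR-181d-5p, did not follow it: its share of the miR-181a-5p and miR-181c-5p reads was 2.10% (1.96% to 2.23%) in Ia_low and 2.24% (2.19% to 2.29%) in Ia_high, and the intervals overlap. The miR-181b-5p share of miR-181a-5p and miR-181b-5p reads was 4.20% (4.02% to 4.39%) in Ia_low and 3.68% (3.62% to 3.75%) in Ia_high.

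miR-181b-5p and miR-181d-5p differ at 1 of their first 18 bases, C12T counted from 1 at the 5′ end and written as in the tags, so sequencing error in the first could be read as the second. Among tags of 21 to 23 nt, those with C12T came to 18.0% of the unchanged miR-181b-5p reads in Ia_low and 13.1% in Ia_high. The same change in miR-181a-5p, which has no such relative, was at 0.0294% in Ia_low and 0.0225% in Ia_high. The other C-to-T changes in miR-181b-5p ran from 0% to 0.00714% in Ia_low and from 0.00522% to 0.0130% in Ia_high. The miR-181d-5p reads thus exceeded the rate of every other single C-to-T change measured in miR-181b-5p.

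The 5p arm outnumbered the 3p arm for the a genes together, the b genes together and Mir181c. It did so by more in Ia_low beyond counting error for the a genes, and for Mir181c under some ways of counting. The shared 5p reads allow no ratio for each a or b gene. For the a genes the 5p arm had 122 times (110 to 136) the 3p reads in Ia_low and 83.9 times (81.2 to 86.6) in Ia_high. For Mir181c the figures were 55.0 times (34.04 to 95.5) in Ia_low and 29.5 times (25.99 to 33.6) in Ia_high, the least lopsided of these sets. Those intervals do not overlap. Nor did they with reads of 21 to 23 nt, at 35.4 to 105 in Ia_low and 24.8 to 32.1 in Ia_high. With templated reads alone Mir181c stood at 113 times (57.2 to 263) in Ia_low and 68.0 times (56.2 to 83.2) in Ia_high. These last intervals overlap. For the b genes they were 376 times (161 to 1160) in Ia_low and 260 times (195 to 354) in Ia_high, with overlapping intervals. These values rest on 3p reads with added ends: with templated reads alone the b genes had at least 4268 times as many 5p reads in Ia_low, where no such 3p read was left, and 1141 times (579 to 2643) in Ia_high. Mir181d had no 3p read, so its 5p arm had at least 1124 times as many in Ia_low and at least 2163 times as many in Ia_high, against a floor of 3 counts per library. These bounds, and that for the b genes, count reads and were not widened for reads per tag, so they may be too high.

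Few 5p reads could be placed at 1 locus of a pair. Reads long enough to reach a base that differs between the b genes numbered 174 for Mir181b-2 and 19 for Mir181b-1 in Ia_low, and 844 for Mir181b-2 and 76 for Mir181b-1 in Ia_high. Counting only fully templated reads, there were 151 for Mir181b-2 and 7 for Mir181b-1 in Ia_low, and 608 and 40 in Ia_high. The base that marks Mir181b-2 there is a U, and an added U on a Mir181b-1 product cannot be told apart from it. Among the 3p reads it was miR-181b-1-3p that was present, and miR-181b-2-3p was at 0 in both libraries.

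The loci were also looked for through their host transcripts. Nr6a1 had 0 distinct fragments in Ia_low and 3 in Ia_high, and Nanos3 had 0 in both. Outside the hairpins, A430106G13Rik had 2 distinct tags in Ia_low and 0 in Ia_high, and Gm4258 had 0 in Ia_low and 1 in Ia_high. The 2 tags of A430106G13Rik in Ia_low held 12 reads. The host transcripts thus had at most 3 distinct tags or fragments each in either library, and no comparison with their miRNAs was possible at this depth. Other stretches of the 6 hairpins, such as loops, gave 12 reads in Ia_low and 31 in Ia_high.

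The start of a miRNA sets its seed, and the 5p arms began at 1 base. miR-181a-5p started at its annotated base in 99.9% of reads in each library (99.91% in Ia_low and 99.87% in Ia_high). miR-181b-5p did so in 99.2% of Ia_low and 99.1% of Ia_high reads, miR-181c-5p in 99.8% and 99.6%, and miR-181d-5p in 99.4% of both. For 82 other arms with at least 1000 reads in each library, the median share at the commonest start was 99.4% in Ia_low and 99.3% in Ia_high, so the family's 5p arms are as fixed at that end as a typical arm. The exception in the family was miR-181c-3p, which began 1 base upstream in 13.3% (8.34% to 19.8%) of Ia_low and 13.0% (11.0% to 15.3%) of Ia_high reads. In Ia_low this rested on 20 reads with added ends, since templated miR-181c-3p reads began at the annotated base in 100% of cases there and in 90.6% in Ia_high. Among reads of 21 to 23 nt they did so in 96.3% in Ia_low and 87.0% in Ia_high. These bounds, and those on tails below, are exact binomial 95% intervals from read counts, without widening.

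The 3′ ends were spread over several bases. Of miR-181a-5p reads at the main start, 53.0% in Ia_low and 43.6% in Ia_high were the templated 23 nt form, aacattcaacgctgtcggtgagt. The templated 22 nt form made up 34.3% in Ia_low and 37.0% in Ia_high, and the 21 nt form 5.77% in Ia_low and 10.4% in Ia_high. The longest of these forms was thus the commonest in both libraries, and the shorter ones had a larger share in Ia_high.

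miR-181c-5p showed the same tilt around a main form of 22 nt, which made up 58.1% in Ia_low and 54.1% in Ia_high. Its 21 nt form was 11.3% in Ia_low and 23.7% in Ia_high, and its 23 nt form 25.9% in Ia_low and 16.7% in Ia_high. miR-181d-5p had the 23 nt form first in Ia_low at 32.0%, ahead of 22 nt at 27.4%, and the 22 nt form first in Ia_high at 33.3%, ahead of 23 nt at 29.7%. For miR-181b-5p the 22 nt form was first in both, at 37.4% in Ia_low and 33.4% in Ia_high.

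Other miRNAs were longer in Ia_low too. The mean tag length of miR-181a-5p was 22.53 nt in Ia_low and 22.32 nt in Ia_high, a difference of 0.201 nt. Over the 82 other arms the median difference was 0.203 nt, and 81 of them were longer in Ia_low. The differences of miR-181b-5p at 0.116 nt, miR-181d-5p at 0.176 nt and miR-181c-5p at 0.307 nt lie within the quartiles of those arms, 0.083 and 0.404 nt.

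**Figure D3:**
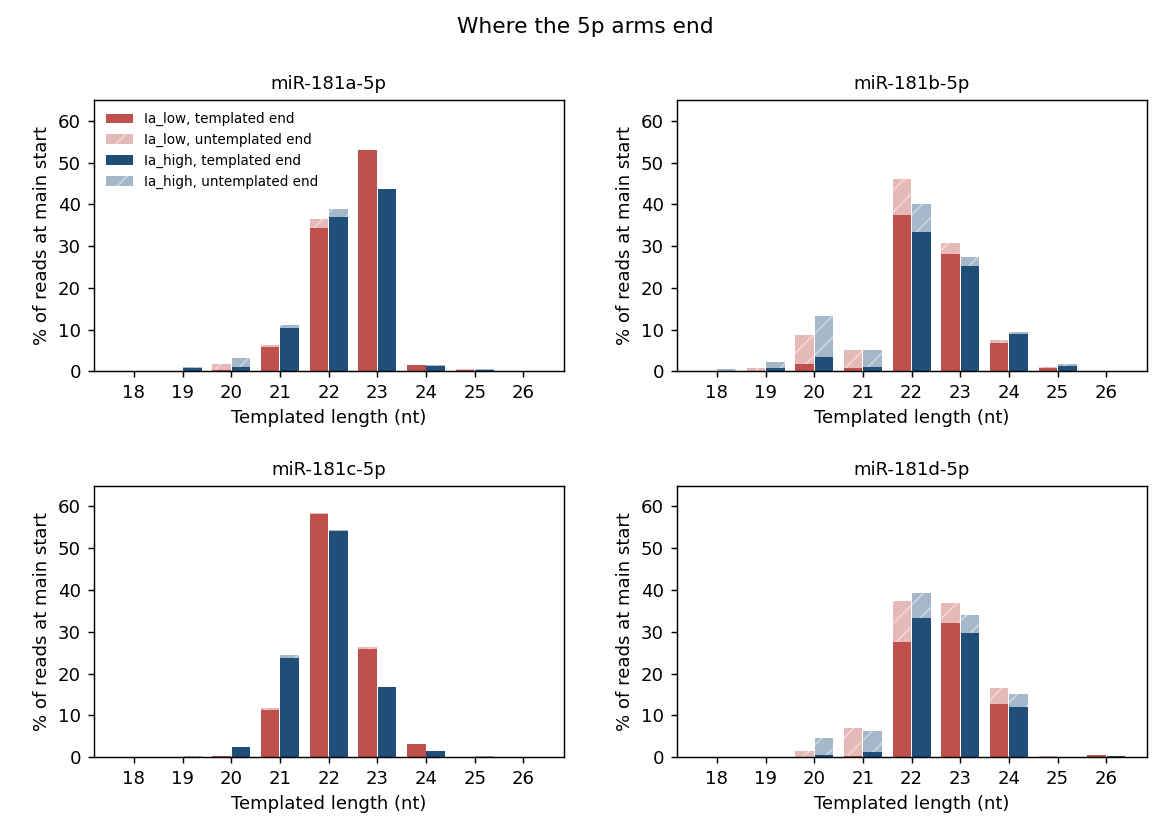
Share of reads at the main start (%) by templated length (nt) for the 4 5p arms, with Ia_low in red on the left and Ia_high in blue on the right at each length. Solid bars end in hairpin sequence and hatched bars carry 1 to 3 untemplated bases; at 23 nt miR-181a-5p has 53.0% in Ia_low and 43.6% in Ia_high, and hatched parts are prominent only for miR-181b-5p and miR-181d-5p.

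The members fell into separate kinds by the untemplated bases at their 3′ ends, which nucleotidyl transferases are known to add. Reads with such an end made up 4.66% (4.59% to 4.72%) of miR-181a-5p in Ia_low and 5.44% (5.40% to 5.48%) in Ia_high. They made up 1.33% (1.10% to 1.60%) of miR-181c-5p in Ia_low and 1.62% (1.48% to 1.77%) in Ia_high. These arms lay below the median of the 82 other arms, 21.9% in Ia_low and 16.5% in Ia_high, and below their lower quartiles of 10.8% and 10.3%.

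miR-181b-5p had such an end in 24.3% (23.7% to 25%) of Ia_low and 25.7% (25.3% to 26.1%) of Ia_high reads. miR-181d-5p had it in 26.9% (25.4% to 28.4%) of Ia_low and 22.5% (21.5% to 23.6%) of Ia_high reads. A single A was the commonest addition to both: 11.2% of Ia_low and 12.7% of Ia_high reads of miR-181b-5p, and 13.9% and 11.4% of those of miR-181d-5p. The pair with a gugggu ending was thus several times as often extended as the pair with a gugagu ending, in either library, when reads were counted. By distinct tags the shares were 86.7% of miR-181a-5p, 84.8% of miR-181b-5p, 69.6% of miR-181c-5p and 79.4% of miR-181d-5p in Ia_low, and 88.1%, 84%, 70% and 82.8% in Ia_high, so that miR-181a-5p no longer stood below the b and d arms.

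At a fixed templated length the difference between the pairs depended on the length. At 22 templated bases, 6.18% of miR-181a-5p reads in Ia_low and 4.90% in Ia_high carried an added end, against 0.436% and 0.383% of miR-181c-5p. At that length it was 18.8% of miR-181b-5p in Ia_low and 16.6% in Ia_high, and 26.6% and 15.3% of miR-181d-5p. The next hairpin base after 22 is a U in all 4, so an added U there counts as templated and could not be seen. The 22 nt form of miR-181c-5p ends in gagu, as the 23 nt form of miR-181a-5p does, so equal lengths compare unlike ends. With the gag end, 6.18% of miR-181a-5p (22 nt) and 3.02% of miR-181c-5p (21 nt) were extended in Ia_low, and 4.90% and 3.13% in Ia_high. With the gagu end, 0.168% of miR-181a-5p (23 nt) and 0.436% of miR-181c-5p (22 nt) were extended in Ia_low, and 0.193% and 0.383% in Ia_high. A short form with an added base cannot be told apart from a mismatch at the end of a read. At 20 templated bases the shares with an added end were close in size. They were 82.1% of miR-181a-5p and 80.7% of miR-181b-5p reads in Ia_low, and 70.2% and 74.4% in Ia_high. The next hairpin base there is an A in miR-181a-5p and a G in miR-181b-5p. An added A on miR-181a-5p or an added G on miR-181b-5p thus counts as templated there, and the added bases seen differed. In Ia_low a single A stood on 0% of miR-181a-5p and 41.0% of miR-181b-5p reads, and a single G on 35.8% and 0%. In Ia_high a single A stood on 0% and 40.1%, and a single G on 28.3% and 0%. At 21 bases the shares were apart, at 8.94% of miR-181a-5p and 82.3% of miR-181b-5p in Ia_low, and 5.65% and 79.6% in Ia_high. The miR-181a-5p reads counted at 21 bases include any forms of 20 bases with an added A, so their share may be too low.

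The 3p arms were extended more often than the a and c 5p arms, and 3 of the 4 measured mostly by U. Of miR-181a-1-3p reads 28.8% (26.2% to 31.6%) in Ia_low and 24.2% (23.2% to 25.1%) in Ia_high had an added end, with a single U on 23% and 16.2%. Of miR-181c-3p reads 52.0% (43.7% to 60.2%) in Ia_low and 57.4% (54.2% to 60.4%) in Ia_high had one, with a single U on 42% and 51.9%. miR-181b-1-3p carried one on all 45 of its reads in Ia_low and on 83.1% (76.9% to 88.1%) in Ia_high. miR-181a-2-3p, with an added end on 36.4% of Ia_low and 34.5% of Ia_high reads, carried both bases. A single A stood on 20.9% in Ia_low and 14.6% in Ia_high, a single U on 10.1% and 13.5%, and a run of U on 2.61% and 4.37%. A therefore led in Ia_low, while in Ia_high the additions of U together came above those of A.

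The following tags show these ends as deposited, with the untemplated base in capitals and the rest in lower case.
miR-181a-5p with A: aacattcaacgctgtcggtgagA
miR-181b-5p with A: aacattcattgctgtcggtgggA
miR-181d-5p with A: aacattcattgttgtcggtgggA
miR-181a-1-3p with U: accatcgaccgttgattgtacT
miR-181a-2-3p with A: accaccgaccgttgactgtaA
miR-181c-3p with U: accatcgaccgttgagtggacT
The first 3 had 7962, 870 and 214 reads in Ia_low, against 22769, 1942 and 252 in Ia_high. The last 3 had 204, 403 and 58 reads in Ia_low, against 811, 1061 and 430 in Ia_high.

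**Figure D4:**
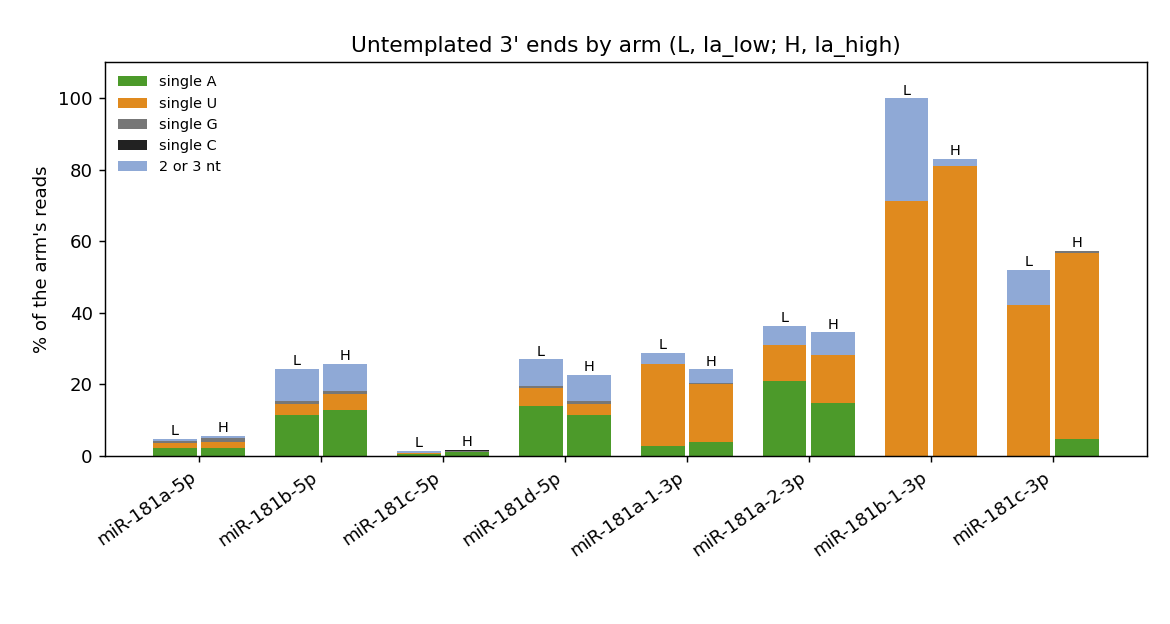
Share of each arm's reads (%) with an untemplated 3′ end, split by the added base, for Ia_low (L, left bar) and Ia_high (H, right bar). miR-181b-5p and miR-181d-5p stand at 22.5% to 26.9%, led by single A, miR-181a-5p and miR-181c-5p at 1.33% to 5.44%, and the 3p arms other than miR-181a-2-3p are led by single U.

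Reported targets of the family were read through distinct mRNA fragments, tags of 20 to 30 nt that match transcripts of 1 protein-coding gene only. There were 132996 fragments in Ia_low and 323633 in Ia_high, and 23 of the 27 listed targets had at least 10 fragments in both libraries together. By a fold of 2 or more and an exact interval without 1, not widened here, 2 of the 23 were called higher in Ia_low, 2 were called lower and 19 were neither. Over all 7003 genes with that many fragments 6.13% were called higher and 9.42% lower, so the targets' counts are close to the background. The median log2 ratio was 0.01 over the 23 targets and -0.13 over all genes. Such fragments are short pieces of mRNA caught in a small RNA library, and their number is not a direct measure of mRNA level.

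Among phosphatases of receptor signalling, Dusp6, which acts on ERK kinases, had 66 fragments in Ia_low and 67 in Ia_high, or 496 and 207 after scaling to 1000000, 2.40-fold higher in Ia_low (1.68 to 3.42). Dusp5, another ERK phosphatase, had 57 fragments in Ia_low and 115 in Ia_high, a ratio of 1.21 (0.862 to 1.67). Ptpn22, which restrains antigen receptor signalling, had 23 in Ia_low and 82 in Ia_high, a ratio of 0.682 (0.410 to 1.10). Ptpn11 had 26 and 51, a ratio of 1.24 (0.742 to 2.03), so 1 of the 4 was called.

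Among survival genes, Bcl2, which blocks apoptosis, had 17 fragments in Ia_low and 12 in Ia_high, or 128 and 37.1 after scaling, 3.45-fold higher in Ia_low (1.55 to 7.91). Its pro-apoptotic counterpart Bcl2l11 had 35 in Ia_low and 58 in Ia_high, a ratio of 1.47 (0.937 to 2.27), and was not called. Mcl1, a survival protein of the same family, had 157 in Ia_low and 263 in Ia_high, a ratio of 1.45 (1.18 to 1.78), short of 2-fold. Xiap, a caspase inhibitor, had 46 and 89, a ratio of 1.26 (0.861 to 1.81).

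Among growth genes, Smad7, an inhibitor of TGF-beta signalling, had 3 fragments in Ia_low and 37 in Ia_high, 5.07-fold lower in Ia_low (1.61 to 25.7). With so few fragments in Ia_low the size of that fold is loosely held. Nlk, Cdkn1b, Atm, Sirt1 and Ddit4 were not called, with ratios from 0.348 for Nlk to 0.996 for Sirt1.

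Among NF-kB regulators, Cyld, a deubiquitinase that restrains the pathway, had 22 fragments in Ia_low and 112 in Ia_high, 2.09-fold lower in Ia_low (1.32 to 3.47). Kpna4, an importin that carries NF-kB into the nucleus, had 122 in Ia_low and 312 in Ia_high, a ratio of 0.951 (0.765 to 1.18). Among inflammation genes, Fos, an activation transcription factor, had 425 in Ia_low and 838 in Ia_high, a ratio of 1.23 (1.10 to 1.39). Counted in reads rather than distinct fragments, the Fos ratio was 0.803, on the other side of 1. Tnf had 20 and 46 fragments, a ratio of 1.06 (0.593 to 1.82). Cd69, an early activation antigen, had 8 and 19, a ratio of 1.02 (0.388 to 2.45). Prkcd was at 1.89 (1.34 to 2.66) and Hmgb1 at 0.541 (0.263 to 1.02), and none of these 5 was called. Il1a, S1pr1, Timp3 and Cbx7 had fewer than 10 fragments.

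The seed was looked for in the longest annotated 3′ UTR of each gene, as TGAATGT, the complement of bases 2 to 8, and as TGAATGTA, which holds the first and adds the A that often follows it, both on the transcript strand. The shorter match stood in 20 of the 27 targets and in 16.4% of 21013 3′ UTRs, and the longer in 9 of the 27 and in 5.28%. The genes were listed as reported targets, so that share follows from the choice. Examples of the longer match, in capitals with the bases 5′ of it, are given for a survival pair and for an activation pair.
Bcl2, chr1:106539830-106539851, minus strand: ataataatcaggacTGAATGTA
Bcl2l11, chr2:128158534-128158555, plus strand: gtaaatatttgttgTGAATGTA
Cd69, chr6:129267863-129267884, minus strand: gtggtaggaagagcTGAATGTA
Tnf, chr17:35199663-35199684, minus strand: tatttatttgcttaTGAATGTA
Bcl2 was called higher in Ia_low, and the other 3 were not called. Dusp6, called higher as well, held neither match, while Smad7 and Cyld, called lower, held the shorter one.

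Over all genes with the longer match, 507 were measured. Their median log2 ratio was -0.13, as it was over the 6989 measured genes with a 3′ UTR, and 12.8% of them were called lower and 6.71% higher in Ia_low, against 9.42% and 6.13% of all genes. Their median 3′ UTR was 2787 nt, against 1404 nt over all measured genes, and length was not matched. The 2 medians were the same value. Fragment counts are whole numbers, so ratios of genes with few fragments can tie. Equal medians therefore do not show that the genes with the match had no shift.

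**Figure D5:**
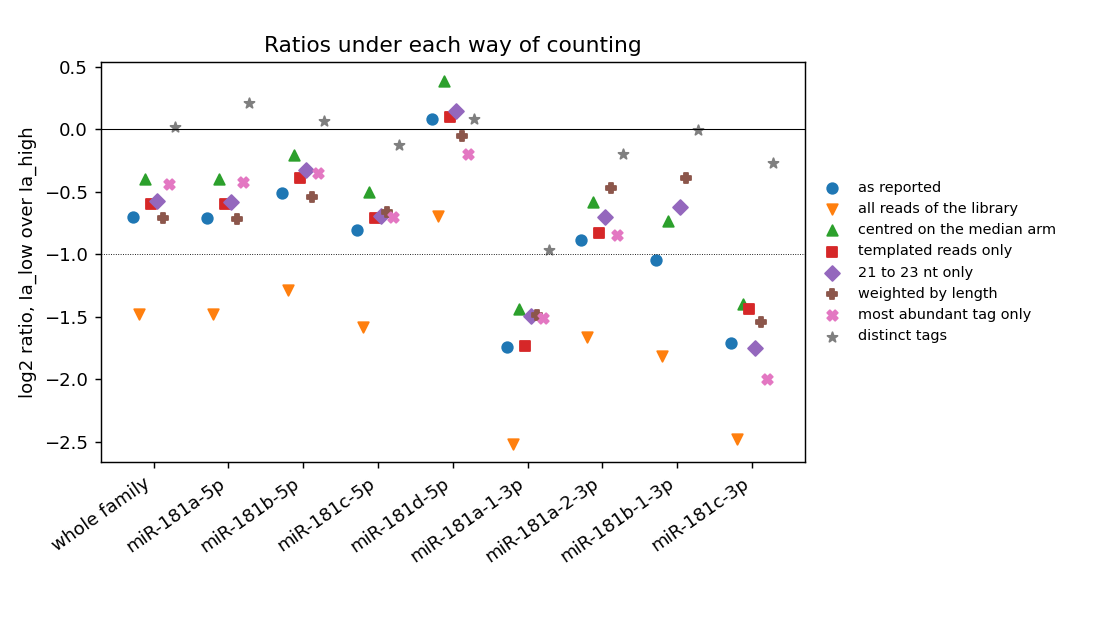
log2 ratio of Ia_low over Ia_high for the whole family and each arm under 8 ways of counting, of which miR-181b-1-3p has values under 6; the dotted line marks 2-fold lower and the solid line no difference. miR-181a-1-3p and miR-181c-3p lie below 0 under all 8, miR-181d-5p lies on both sides of 0, and scaling to all reads of the library puts every point of the family below 0.

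The ratios of the 5p arms depended on how reads were scaled and counted. That of miR-181a-5p ran from -1.48 scaled to all reads to 0.22 with distinct tags, a count that had 113 tags in Ia_low and 194 in Ia_high for this arm, and was negative under the other ways. Scaled to all reads of the library, 6 of the 8 arms were called lower, all but miR-181d-5p and miR-181b-1-3p. Most arms were called lower under that scaling, 110 of the 198 tested. miR-181a-1-3p ran from -2.52 to -0.97, and miR-181c-3p from -2.48 to -0.27. Both were called under each scaling and each restriction on tags except distinct tags, where no arm of the family was called.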

How the data were processed

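The authors deposited raw read counts, 1 for each distinct sequence. Per the labels' protocols, RNA under 30 bases was gel purified, ligated to adaptors, amplified for 12 cycles and read on a Solexa sequencer. How reads were trimmed or filtered is not given in the sources used. Tags of 18 to 30 nt had to match, with no mismatch, miRNA hairpins of GENCODE M21 (GRCm38), directly or after removal of up to 3 nt at the 3′ end with at least 15 nt templated, and were given to a product if they began within 5 nt of its RefSeq start. Tags that fitted several arms stayed in the miRNA total but were given to no arm, 0.271% of miRNA reads in Ia_low and 0.515% in Ia_high, none from this family. Calls required 2-fold, 10 CPM and a widened interval excluding 1. Python 3.11.15, NumPy 2.4.6, SciPy 1.17.1 and Matplotlib 3.10.9 were used, and the matching and the call rule were tested on simulated data.

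Products of the 6 genes, the 3 arms nearest in ratio to miR-181a-5p and to miR-181b-5p, host genes and listed targets were named; 2 listed targets are counted but not reported here by name. The members, lists and rules were chosen with earlier results of these data known. Of the remaining marker lists, the 3 markers of conventional type 2 dendritic cells summed to 1203 in Ia_low and 1301 in Ia_high, with Irf4 and Cd209a called lower in Ia_low and Sirpa, at 137 of 160 fragments in Ia_low, not called. The 5 MHC class II genes summed to 6587 in Ia_low and 11640 in Ia_high, with 3 called lower. The 5 plasmacytoid dendritic cell markers summed to 398.5 in Ia_low and 398.6 in Ia_high, with Runx2 called higher and Tcf4 lower, and NK cell markers to 45.1 and 15.5. Alternatives covered scaling, lengths, tails, single and distinct tags, thresholds and intervals.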

Additional observations from a re-analysis of the deposited data

Results flagged for a closer look

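Tags over 30 nt were used in no comparison, and some of them began with 21 nt of a miR-181 hairpin: 361 reads in Ia_low and 1553 reads in Ia_high, above the 3 counts that 0 reads allows. No tag over 30 nt equalled a hairpin stretch over its whole length. Of those reads, 329 in Ia_low and 1500 in Ia_high went on into the start of the small RNA 3′ adaptor. All reads over 30 nt numbered 1960510 in Ia_low and 267575 in Ia_high.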

How the results depend on the processing

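The log2 ratio of the family total, -0.70 as reported, was -1.48 scaled to all reads, -0.39 centred on the median of all arms, -0.60 with templated reads, -0.57 with reads of 21 to 23 nt, -0.44 from the most abundant tag of each arm and 0.023 with distinct tags. Weighting by length gave -0.71. The 2 arms called became 6 scaled to all reads, 5 at a fold of at least 1.5 and 0 with distinct tags. The count was 3 with intervals from read counts and 2 under the other settings. The cause of these differences was not tested. Over all arms, scaling to all reads gave 110 lower and 4 higher of 198 arms tested. A fold of at least 1.5 gave 83 lower and 35 higher of 254, and intervals from read counts 81 and 26 of 254. Distinct tags gave 15 lower and 3 higher of 727 arms, and the most abundant tag 55 lower and 11 higher of 190. Of 136 other values under alternatives, 66 moved by more than their counting interval and 70 did not; none that was called changed sign. No paired analysis was possible because each group has 1 library. Depth limits miR-181b-1-3p, miR-181b-2-3p, miR-181d-3p and the host transcripts most.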
